A study of Mus musculus with 4 samples.

Results

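The genes examined were 10 members of the bone morphogenetic protein (BMP) pathway out of 32286 genes counted in the lungs of wild-type (WT) and *Tubb3*-/- mice after bleomycin. They were the receptors *Bmpr2*, *Bmpr1a* and *Acvrl1*, the ligands *Bmp4*, *Bmp5* and *Bmp6*, the secreted inhibitor *Grem1*, the target genes *Id1* and *Id3*, and the inhibitory *Smad6*. They were chosen by name and not by a cut on measured values, although earlier results of these data were known. In the lungs of 2 WT and 2 *Tubb3*-/- mice, single-cell RNA-seq was carried out 14 days after 0.8 U/kg bleomycin, a drug that injures the lung epithelium and leads to fibrosis, was given into the trachea. All 4 mice received bleomycin, and no untreated lung was analysed here. *Tubb3*-/- mice carried the *Cre* sequence in both copies of *Tubb3*, inserted at its start codon, so that the loss of β-III tubulin concerns every cell type and not mural cells alone. Each mouse gave a whole-cell library depleted of red blood cells and a mural cell-enriched library depleted of cells bearing CD31, CD45, EpCAM or TER-119, and the 4 mice of each kind were tagged and pooled. The mural cell-enriched cells were sorted by MCAM and PDGFRα and mixed, so that the sort set the shares of cell types there.

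BMP ligands bind pairs of type I receptors (such as BMPR1A and ALK1, the product of *Acvrl1*) and type II receptors (such as BMPR2), which phosphorylate SMAD1, SMAD5 and SMAD9. These enter the nucleus with SMAD4 and switch on genes such as *Id1* and *Id3*, whose products block the binding of other transcription factors to DNA, and *Smad6*, whose product dampens the pathway. Gremlin 1 (*Grem1*) binds BMP ligands outside the cell and keeps them from their receptors. In the lung the pathway is best known from the vessel wall, since loss-of-function variants of *BMPR2* underlie heritable pulmonary arterial hypertension.

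Unique molecular identifiers (UMIs, counts of single RNA molecules) were added up for each mouse across all cells of a lineage. A cell was put in a lineage when it held at least 1 UMI of that lineage's gate gene (*Ptprc* for immune, *Cdh5* for endothelial, *Epcam* for epithelial, *Msln* for mesothelial, *Higd1b* or *Myh11* for mural, *Pdgfra* for fibroblast) and none of the others. Levels are given as CPM (UMIs of a gene scaled to a fixed class total), which compare one gene between samples but not different genes with each other. Of 30860 cells kept, 15649 fell in 1 lineage, 769 in none, and 14442 (46.8%) matched several gates and were left out of the lineages. *Myh11* had a UMI in 69.8% of cells of the mural cell-enriched libraries, and in 62.1% of those cells that held 4 or more *Ptprc* UMIs, so that a single UMI of it did not separate mural cells from others there. The 4 fibroblast markers *Col1a1*, *Col1a2*, *Dcn* and *Lum*, which no gate used, summed to 5951 to 10994 CPM in the fibroblast gate, to 2261 to 4590 CPM in the mural gate and to 3508 to 6189 CPM in the mesothelial gate. The 4 mural markers (*Notch3*, *Pdgfrb*, *Cspg4* and *Cox4i2*) summed to 646.7 to 1034 CPM in the mural gate and 63.6 to 112.6 CPM in the fibroblast gate. The 4 mesothelial markers summed to 2144 to 3018 CPM in the mesothelial gate and 63.9 to 100.6 CPM in the fibroblast gate. Fibroblast markers were thus present in the mural and mesothelial gates. Whether this RNA came from fibroblasts or from the gate's own cells was not tested. These classes cannot be taken as pure, and they are called gates below. Markers of the endothelial, epithelial and immune lineages led in their own lineage. Some results were set beside a leading gate (24100 cells). It took every cell, of 1 gate or several, in which a gate had at least 2 UMIs and at least 80% of all gate UMIs. Cells with a single gate UMI were therefore left out of it. The libraries held 3202 to 5051 cells with a median of 9186 to 16299 UMIs, and in each pool both *Tubb3*-/- mice had higher medians than both WT mice. *Tubb3* had 0.868 to 5.49 CPM in the WT libraries and 0.262 to 0.789 CPM in the *Tubb3*-/- libraries, in the direction of the labels. The pools shared 59 cell barcodes, and mice within a pool shared 0.

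Promoter sequences were looked at for the members with a RefSeq window (build GRCm38.p6), which were 8 of the 10. *Grem1* and *Smad6* are shown because *Grem1* differed most between fibroblast states and *Smad6* was among the members highest in endothelial cells. Each line gives the 250 bases before the RefSeq start, 5′ to 3′ on the gene's strand. The *Grem1* window is chr2:113758649-113758898 and the *Smad6* window chr9:64022060-64022309, both for genes on the minus strand. Capitals mark the motif GGCGCC, a GC-rich element that SMAD1 and SMAD5 can bind.
Grem1: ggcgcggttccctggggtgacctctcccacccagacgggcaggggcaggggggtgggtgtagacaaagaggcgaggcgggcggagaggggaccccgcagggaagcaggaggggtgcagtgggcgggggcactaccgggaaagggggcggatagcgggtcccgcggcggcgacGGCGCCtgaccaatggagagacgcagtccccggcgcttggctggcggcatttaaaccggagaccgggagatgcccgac
Smad6: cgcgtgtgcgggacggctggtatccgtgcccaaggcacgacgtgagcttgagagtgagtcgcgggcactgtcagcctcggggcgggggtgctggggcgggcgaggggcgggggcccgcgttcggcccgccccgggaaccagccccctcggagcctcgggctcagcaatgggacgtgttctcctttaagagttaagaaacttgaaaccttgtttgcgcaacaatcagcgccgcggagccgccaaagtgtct
The motif GGCGCC, which reads the same on both strands, was present in the windows of *Bmpr2*, *Bmpr1a* and *Grem1* (3 of 8) and in 9.59% of all 32851 windows. GTCTAGAC, also the same on both strands, was in none of the 8 and in 0.167% of all windows, and CAGACA, searched on both strands, was in that of *Bmp5* alone and in 17.1% of all. No member's window held more than 1 of these motifs. In GENCODE vM21 on mm10, *Grem1* lies at chr2:113746164-113758646 and *Bmpr2* at chr1:59763400-59879014. *Grem1*, *Id1*, *Id3* and *Smad6* overlap no other annotated gene. On the same strand *Bmpr2* overlaps *Gm38125* and *Bmp5* overlaps *Gm47723*, so that reads there may be shared. On the other strand *Bmp6* overlaps *Txndc5* and *4930579J19Rik*, and *Bmpr1a*, *Acvrl1*, *Bmp4* and *Bmp5* overlap predicted (Gm) genes. Reads of those overlaps may be shared only if counting ignored strand.

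The first question was where in the injured lung each gene was expressed. *Bmpr2*, *Acvrl1*, *Bmp6* and *Smad6* were highest in endothelial cells, *Bmp4* and *Bmp5* in fibroblasts, and each of these 6 was above all 5 other lineages in edgeR's test. *Id3* and *Grem1* had their highest levels in the mural gate and in fibroblasts. Over the 15 pairs of lineages, 128 of 150 member tests passed an adjusted p of 0.05. Of all 16365 genes tested, the share that passed was 63.4%, 62.9%, 59.4%, 65.6% and 51.5% for endothelial cells against fibroblasts, mural, epithelial, immune and mesothelial cells. It was 44.5%, 60.1%, 75.5% and 41.8% for fibroblasts against mural, epithelial, immune and mesothelial cells, and 60.4%, 75.6% and 44% for mural against epithelial, immune and mesothelial cells. It was 66.7% and 48.5% for epithelial against immune and mesothelial cells, and 64.5% for immune against mesothelial cells. The same 4 mice entered each lineage, and the mouse was a term of the fit.

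*Bmpr2*, the type II receptor, had 1390 and 1631 CPM in endothelial cells of the WT mice and 1233 and 1286 CPM in those of the *Tubb3*-/- mice. Every mouse had more in endothelial cells than in any other lineage, where the means ran from 78.3 CPM in immune cells to 240.8 CPM in fibroblasts. The difference between endothelial cells and fibroblasts was 2.25 on the log2 scale (SE 0.10, adjusted p = 1.4e-14). Fibroblasts (240.8 CPM ± 10.9, SD, n = 4 mice), the mesothelial gate (230.7 ± 50.0) and the mural gate (197.4 ± 15.4) had ranges that overlapped in neighbouring pairs. In the test fibroblasts were above the mesothelial gate (log2 difference 0.36, SE 0.10, adjusted p = 0.00729), and the mesothelial and mural gates were not told apart (adjusted p = 0.930). With every cell thinned to 2000 UMIs, 87.0% of endothelial cells held a *Bmpr2* UMI against 34.8% of fibroblasts and 12.7% of immune cells. Without thinning, 95.2% to 97.6% of the endothelial cells of a mouse held one, and 16 to 26 endothelial cells per mouse had under 2000 UMIs and were left out of the thinned share.

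The type I receptors divided the lineages between them. *Acvrl1*, which encodes the endothelial receptor for BMP9 and BMP10, had 636.7 to 828.8 CPM in endothelial cells of the 4 mice, and its next level was 62.9 CPM ± 6.86 in fibroblasts (log2 difference 3.22, SE 0.11, adjusted p = 1.7e-16). *Bmpr1a* was lowest in endothelial cells, at 6.31 to 10.3 CPM. It stood at 215.1 CPM ± 33.2 in the mesothelial gate, 189.5 ± 17.4 in the mural gate and 164.6 ± 6.44 in fibroblasts, and neither neighbouring pair of these passed the test (adjusted p = 0.894 and 0.320). Epithelial cells, at 103.3 CPM ± 13.5, lay below all 3. Endothelial cells were thus the highest lineage for *Acvrl1* and the lowest for *Bmpr1a*.

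Of the ligands, *Bmp4* had 114.5 to 131.1 CPM in fibroblasts, and *Bmp5* had 186.0 to 248.3 CPM there. No other lineage reached these ranges in any mouse. Within the mural gate, 42 cells had *Higd1b* and no *Myh11* (the pericyte gate), too few for an order against fibroblasts. *Bmp4* had 94.7 and 160 CPM there in WT and 131 and 119 CPM in *Tubb3*-/- mice, from 3 to 15 UMIs per mouse. *Bmp5* had 203 and 267 CPM there in WT and 105 and 238 CPM in *Tubb3*-/- mice, from 6 to 25 UMIs. Among the lineages, *Bmp4* was next in the mesothelial gate (58.6 CPM ± 8.37) and in epithelial cells (52.8 ± 7.40), a difference that did not pass (adjusted p = 0.741). *Bmp5* was next in the mural gate, at 95.3 CPM ± 17.2. *Bmp6* was nearly limited to endothelial cells (419.5 CPM ± 91.9) and the mesothelial gate (43.6 ± 11.3), with means of 1.14 to 1.90 CPM in the other 4 lineages.

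*Grem1*, the inhibitor, was scarce. It had 13.8 and 17.1 CPM in the mural gate of the WT mice and 19.7 and 24.1 CPM in that of the *Tubb3*-/- mice. In fibroblasts the values were 18.2 and 8.57 CPM in WT and 20.6 and 17.1 CPM in *Tubb3*-/- mice, so that the WT replicate 2 lay apart from the other 3. The mural and fibroblast gates were not told apart (log2 difference 0.14, SE 0.24, adjusted p = 0.680). Endothelial, epithelial and immune cells had means of 1.10, 0.900 and 0.550 CPM. At 2000 UMIs per cell only 1.74% of fibroblasts and 1.42% of mural gate cells held a *Grem1* UMI, against 0.150% of immune cells, a type that should lack it. Without thinning, the shares were 5.67% of fibroblasts (median 17030 UMIs), 5.97% of mural gate cells (10658) and, by mouse, 0.249% to 0.719% of immune cells (6890).

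Among the targets, *Id1* had 310.4 to 558.6 CPM in endothelial cells, 213.5 to 447.3 in the mesothelial gate and 145.4 to 215.6 in the mural gate. Neighbouring ranges overlapped, and neither step was significant (adjusted p = 0.0651 and 0.0581). Fibroblasts held 43.7 CPM ± 5.77 of *Id1*. *Id3* had 1298 CPM ± 153 in the mural gate and 1260 ± 101 in fibroblasts, a difference that did not pass (adjusted p = 0.893), and endothelial cells were lower at 579.7 ± 78.2. The paralogs *Id1* and *Id3* therefore ranked the lineages differently. *Smad6* had 348.8 CPM ± 111 in endothelial cells, 39.2 ± 17.4 in the mesothelial gate and 3.03 ± 0.986 in immune cells.

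**Figure D1:**
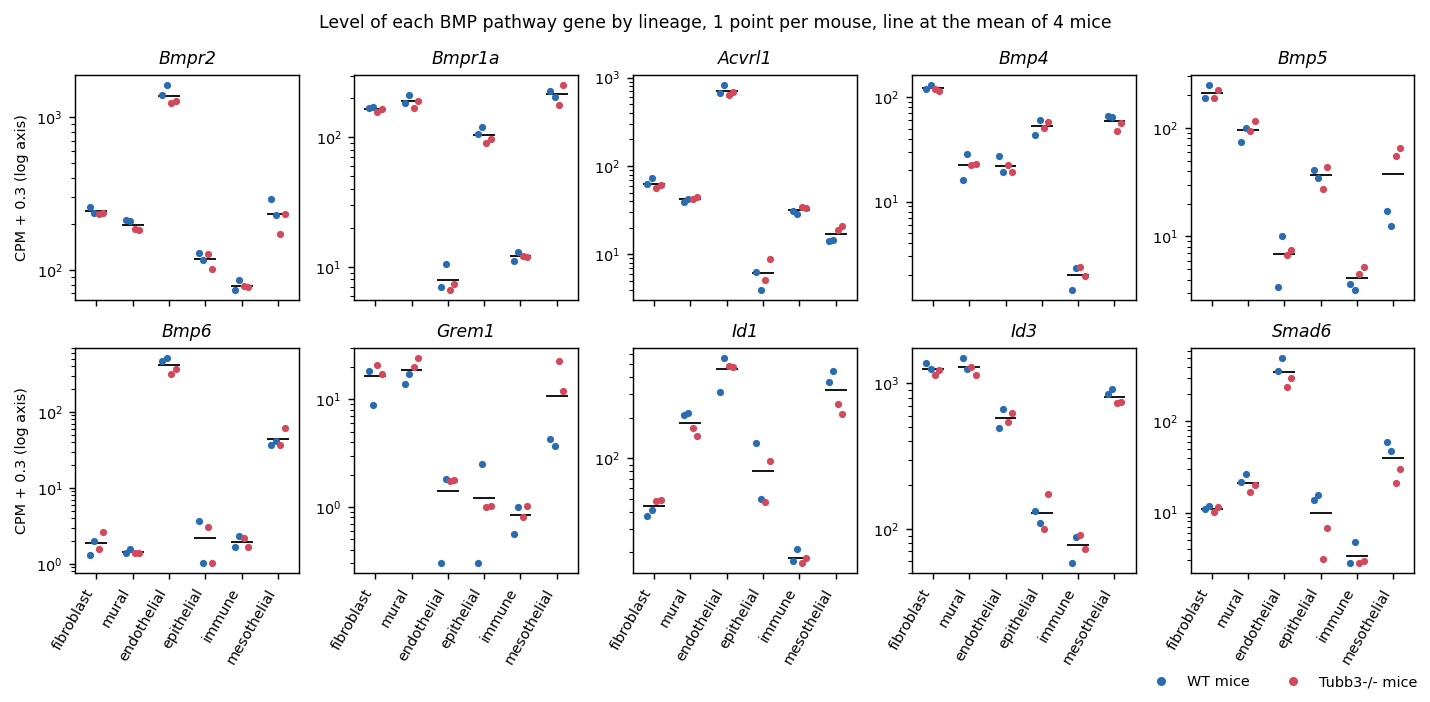
Level of each BMP pathway gene in 6 lineages, in CPM + 0.3 on a log axis, with 1 point per mouse (blue WT, red *Tubb3*-/-) and a line at the mean of the 4 mice. *Bmpr2*, *Acvrl1*, *Bmp6* and *Smad6* peak in endothelial cells in all 4 mice, and the points of *Bmp5* in the mesothelial gate separate by genotype.

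**Figure D2:**
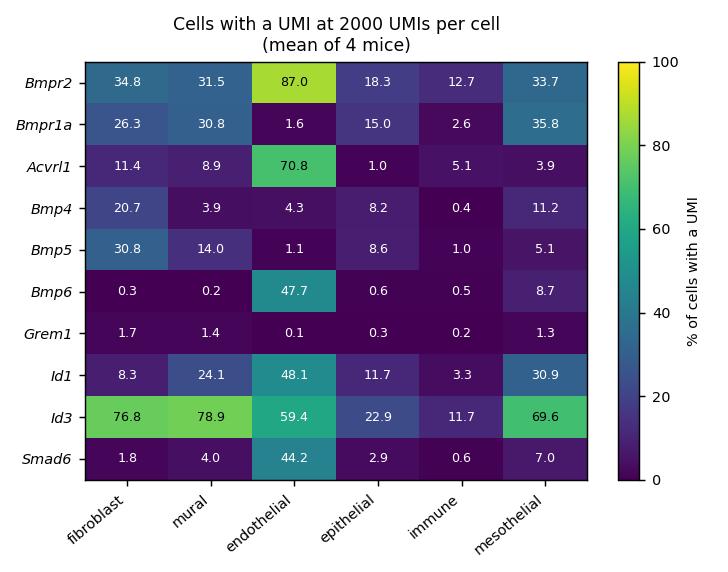
Share of cells with at least 1 UMI of each gene (rows) in each lineage (columns) after thinning every cell to 2000 UMIs, as the mean of the 4 mice in percent. *Grem1* stays at or under 1.74% in every lineage, whereas *Id3* reaches 78.9% of mural gate cells.

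Within endothelial cells, subtypes set by 1 gene each were described without a test. *Bmpr2* had 1644 to 1942 CPM in the aerocytes (*Ednrb*, 121 cells) of the 4 mice and 1239 to 1828 CPM in general capillary cells (*Gpihbp1*, 1362 cells), ranges that overlapped. *Acvrl1* was higher in aerocytes (1179 to 1401 CPM) than in general capillary cells (645.1 to 879.1 CPM) in every mouse. *Bmp6* showed the opposite order, with 402.7 to 671.3 CPM in general capillary cells and 37.9 to 80.7 CPM in aerocytes. Arterial (37 cells), venous (28) and lymphatic (25) cells were too few per mouse for an order. In the mural gate, *Bmpr2* had 180.2 to 212.8 CPM in cells of the smooth muscle gate (*Myh11* without *Higd1b*, 4038 cells). The pericyte gate (*Higd1b* without *Myh11*) held 42 cells, also too few for an order. Under the leading gate, 525 mural cells with at least 2 *Higd1b* UMIs, with or without *Myh11*, had 190.6 to 218.5 CPM of *Bmpr2*.

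The genes whose levels over the 24 sums of mouse and lineage ran most like those of *Bmpr2* were *Luzp1* (Pearson r of log2(CPM + 1) = 0.977), *Ephb4* (0.973), *4931406P16Rik* (0.969), *Git1* (0.967) and *Fmo1* (0.958), out of 12391 genes with at least 10 CPM in a lineage. For *Grem1* they were *Ltbp2* (0.961), *1810055G02Rik* (0.958), *Col6a3* (0.954), *Col5a1* (0.952) and *Fzd1* (0.947), and for *Id1* they were *Cav1* (0.963), *Tm4sf1* (0.953), *Wfdc1* (0.951), *Atp6v0e2* (0.939) and *Bcr* (0.932). The 24 sums share 4 mice and 2 pools and are not independent.

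The next question was whether the genes differed between *Tubb3*-/- and WT mice within a lineage. With 2 mice per genotype an exact permutation test cannot go below p = 0.333, so edgeR's quasi-likelihood test over all genes was used, with Benjamini-Hochberg adjustment. No member tested passed in fibroblasts, the mural gate or the smooth muscle gate (10 tested in each), in endothelial or immune cells (9 in each), in epithelial cells (7) or in the pericyte gate (4). In the mesothelial gate 1 of the 10, *Bmp5*, passed. Over all genes, 0% passed in fibroblasts (0 of 14783, 2672 at an unadjusted p under 0.05), in the mural gate (0 of 14478, 1613), in endothelial cells (0 of 12737, 1733), epithelial cells (0 of 10422, 444), immune cells (0 of 14085, 1179) and the pericyte gate (0 of 1556, 64). In the smooth muscle gate 0.853% passed, and in the mesothelial gate 0.356%. DESeq2 called 485 genes (3.28%), 159 (1.1%), 125 (0.981%), 3 (0.0288%), 65 (0.461%) and 2 (0.129%) in the first 6 of these, in that order, with 2 members among those of endothelial cells and none in the other 5. In counts simulated for these comparisons, a log2 change of 1.5 was recovered for 99.5% to 100% of genes in fibroblasts, mural, endothelial and immune cells, but for 70% in epithelial cells, 80% in the mesothelial gate and 12.5% in the pericyte gate. The changed genes had 10 CPM or more, and the spread between mice was the trend that edgeR fitted, not that of each gene. No smaller change was simulated, so the recovery of the smaller changes given below is not known.

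In endothelial cells, *Smad6* had 356.6 and 499.3 CPM in WT mice against 241.5 and 297.8 CPM in *Tubb3*-/- mice. *Bmp6* had 474.3 and 516.2 CPM in WT mice against 316.3 and 371.1 CPM. For both genes each *Tubb3*-/- mouse lay below each WT mouse. The log2 fold changes were -0.65 (SE 0.17, adjusted p = 0.197) for *Smad6* and -0.51 (SE 0.11, adjusted p = 0.147) for *Bmp6*, short of the threshold, whereas DESeq2 gave adjusted p = 0.0291 and 0.0396 for the same sums (0.981% of all genes called). Leaving out WT replicate 1 brought *Smad6* to -0.87 (adjusted p = 0.0378). *Bmpr2* was also lower without overlap (log2 fold change -0.24, SE 0.10, adjusted p = 0.354), so that 3 of 9 members tested were lower and 0 higher in this sense, where 24.1% and 20.9% of all genes were. *Acvrl1* (-0.16, SE 0.12, adjusted p = 0.624), *Id1* (0.16, SE 0.24, adjusted p = 0.821) and *Id3* (0.02, SE 0.15, adjusted p = 0.972) overlapped between the genotypes. All 4 endothelial markers were present, and their sum was 4438 and 5641 CPM in WT and 4549 and 5099 CPM in *Tubb3*-/- mice. In the same cells fibroblast markers summed to 436.1 and 358.6 CPM in WT and 503.1 and 520.6 CPM in *Tubb3*-/- mice (3 of 4 higher without overlap), and epithelial markers to 36.9 and 56.0 against 16.6 and 17.0 CPM (2 of 4 lower without overlap). Their part in the values of *Smad6* and *Bmp6* was not tested. At 2000 UMIs per cell, 42.8% and 57.5% of WT endothelial cells held a *Smad6* UMI and 36.6% and 39.8% of *Tubb3*-/- ones (exact permutation p = 0.333, two-sided, the smallest this design allows).

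In the mural gate, *Bmpr2* had 212.3 and 208.8 CPM in WT mice against 185.9 and 182.5 CPM in *Tubb3*-/- mice. The groups did not overlap, but the change was small (log2 fold change -0.20, SE 0.10, adjusted p = 0.549), and in the smooth muscle gate it was -0.21 (SE 0.09, adjusted p = 0.379). *Id1* had 208.4 and 215.6 CPM against 167.4 and 145.4 CPM (-0.44, SE 0.12, adjusted p = 0.284). *Smad6* was lower without overlap as well (-0.38, SE 0.12, adjusted p = 0.345), but pointed upward in the whole-cell libraries alone (0.36, SE 0.33, adjusted p = 0.909, from 17 to 37 UMIs per mouse). *Id3* overlapped (-0.18, SE 0.18, adjusted p = 0.771). *Grem1* pointed upward (0.51, SE 0.14, adjusted p = 0.281), as did *Bmp5* (0.26, SE 0.14, adjusted p = 0.575), whose ranges overlapped, and *Bmpr1a* had -0.14 (SE 0.10, adjusted p = 0.671). Over the 10 members, 4 were lower and 1 higher without overlap, where 18.9% and 22.2% of all genes were. The 4 fibroblast markers summed to 2641 and 2261 CPM in the mural gate of WT mice and 4590 and 3997 CPM in that of *Tubb3*-/- mice. Of these markers, 4 of 4 were higher without overlap. Fibroblasts had less *Id1* (43.7 against 184.2 CPM) and *Smad6* (10.8 against 20.9 CPM) than the mural gate, but more *Bmpr2* (240.8 against 197.4 CPM). The part of these markers in the values of any member, or in the comparison with fibroblasts below, was not tested.

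In fibroblasts, *Id1* was the 1 member for which each *Tubb3*-/- mouse exceeded each WT mouse, at 48.0 and 49.0 against 37.0 and 40.8 CPM (log2 fold change 0.32, SE 0.08, adjusted p = 0.162). *Bmpr2* had 257.0 and 236.6 CPM in WT and 233.4 and 236.1 CPM in *Tubb3*-/- mice (-0.08, SE 0.11, adjusted p = 0.750). *Bmp4* (-0.10, SE 0.09, adjusted p = 0.568), *Bmp5* (-0.09, SE 0.14, adjusted p = 0.789) and *Id3* (-0.16, SE 0.14, adjusted p = 0.597) were near 0 as well. *Grem1* had a log2 fold change of 0.47 (SE 0.36, adjusted p = 0.535), which became 1.19 (adjusted p = 0.0128) without WT replicate 1 and 0.02 without WT replicate 2. In all, 5 of 10 members were lower without overlap and 1 higher, where 23.6% and 24.5% of all genes were. The *Id1* change of the mural gate minus that of fibroblasts was -0.77 on the log2 scale (SE 0.12, unadjusted p = 4.3e-04, adjusted p = 0.195), and no member passed such a test. Of all genes, 0.0065% passed it between fibroblasts and the mural gate, 0% between fibroblasts and endothelial cells and 0% between the mural gate and endothelial cells.

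In the mesothelial gate (324 cells), *Bmp5* had 16.9 and 12.2 CPM in WT mice against 54.6 and 64.9 CPM in *Tubb3*-/- mice, from 17, 18, 61 and 72 UMIs. It rose by 2.06 on the log2 scale (SE 0.28, adjusted p = 0.0207). The rise came from the mural cell-enriched libraries (17.3 and 14.5 against 70.0 and 75.8 CPM). The whole-cell libraries held only 3, 3, 3 and 0 *Bmp5* UMIs of these cells, or 15.5 and 6.79 CPM in WT and 10.4 and 0 CPM in *Tubb3*-/- mice, which pointed the other way. With every cell thinned to 2000 UMIs, 1.39% and 1.06% of the gate's cells held a *Bmp5* UMI in WT and 8.33% and 9.72% in *Tubb3*-/- mice. With the leading gate (722 cells) the rise was 0.86 (SE 0.22, adjusted p = 0.345), and it no longer passed (0.0583% of all genes did). Fibroblast markers, 3 of 4 without overlap, moved the same way, from 3508 and 4232 CPM to 6189 and 5083 CPM, and none of the 4 was at 0. The 4 mural markers, 3 of them without overlap, went from 21.9 and 16.2 CPM to 50.2 and 55.0 CPM. Mesothelial markers summed to 2417 and 3018 CPM in WT and 2146 and 2144 CPM in *Tubb3*-/- mice. The part of fibroblast and mural RNA in the *Bmp5* value was not tested.

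Of a list of 43 other genes of the pathway, 7 to 38 were tested in each of these 8 comparisons, and 0 passed in either direction in edgeR. DESeq2 called 2 higher and 3 lower of 38 in fibroblasts (3.28% of all genes called) and 1 and 1 of 36 in the mural gate (1.1%). It called 3 and 1 of 36 in the smooth muscle gate (250 of 14182 genes), 1 and 0 of 26 in immune cells (0.461%), and none in the other classes. A sum does not separate the number of expressing cells from the RNA per cell, and shares of cells are given above only for *Smad6* and *Bmp5*.

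**Figure D3:**
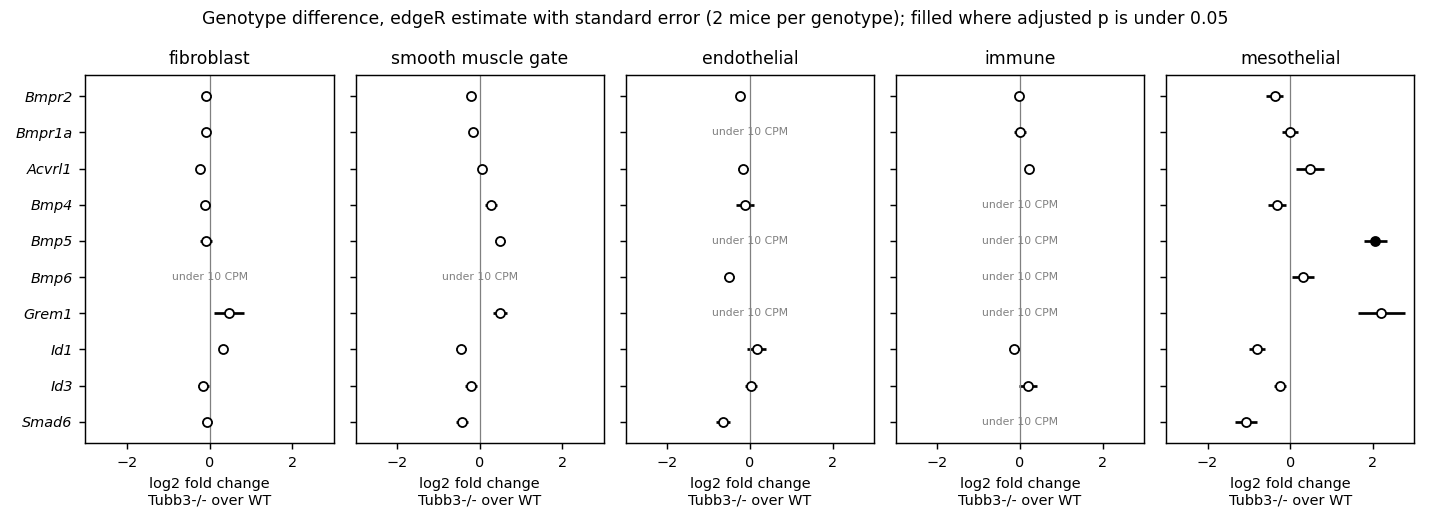
Log2 fold change of each gene, *Tubb3*-/- over WT (x axis), with its standard error from edgeR, in 5 cell classes of 2 mice per genotype, where filled points have an adjusted p under 0.05. Of the genes at 10 CPM or more, *Bmp5* in the mesothelial gate alone is filled, and *Bmp6* and *Smad6* in endothelial cells lie at -0.51 and -0.65.

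The last comparison asked how the pathway stood in fibroblasts that expressed *Cthrc1*, the marker of the fibrotic fibroblasts that arise after bleomycin. Fibroblasts with a *Cthrc1* UMI (959 cells) were set against those without (2833 cells) within each mouse. *Grem1* was far higher in *Cthrc1*-positive fibroblasts, *Bmp4* and *Acvrl1* were lower, and the other 7 members did not pass. Over all genes 11.6% passed (1567 of 13484, of which 855 were higher and 712 lower). *Cthrc1*-positive cells held a mean of 20818 UMIs and *Cthrc1*-negative cells 17146, so that finding a *Cthrc1* UMI went with depth.

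*Grem1* had 66.0, 39.6, 53.2 and 44.6 CPM in *Cthrc1*-positive fibroblasts of WT replicates 1 and 2 and *Tubb3*-/- replicates 1 and 2. The *Cthrc1*-negative fibroblasts of the same mice had 2.96, 1.27, 2.49 and 3.55 CPM. Every mouse was higher in the positive cells, by 12.6 to 31.3 times. The log2 difference was 4.33 (SE 0.15, adjusted p = 5.1e-07). The *Cthrc1*-positive cells made up 25.3% of the fibroblasts and held 89.0% of their *Grem1* UMIs. These levels rest on few cells. Of 3792 fibroblasts 215 held a *Grem1* UMI, with a median of 1 and a maximum of 60 per such cell. Of those 215 cells, 66.0% also held a *Cthrc1* UMI. In the mural gate, the 18.2% of cells with a *Cthrc1* UMI held 58.0% of that gate's *Grem1* UMIs. In WT mice *Cthrc1*-positive cells were 21.1% and 17.4% of fibroblasts, compared with 31.9% and 29.1% for *Tubb3*-/- mice, and *Grem1* within them overlapped between the genotypes. The *Tubb3*-/- libraries were deeper. Their median UMIs per cell were 12318 and 11484.5 against 9186 and 10091 in WT whole-cell libraries. In mural cell-enriched libraries they were 16299 and 15725 against 13321 and 12406. The part of depth in these shares was not tested.

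*Bmp4* fell from 124.8, 135.5, 140.5 and 128.3 CPM in the *Cthrc1*-negative cells of the 4 mice, in the same order, to 101.3, 112.4, 79.3 and 86.2 CPM in the positive cells. It was lower in 4 of 4 mice (log2 difference -0.46, SE 0.08, adjusted p = 0.00561). *Acvrl1* was lower in 4 of 4 mice as well (-0.26, SE 0.06, adjusted p = 0.0259), but DESeq2, which called 7.89% of genes, did not call it (adjusted p = 0.152), nor did edgeR without WT replicate 1, *Tubb3*-/- replicate 1 or *Tubb3*-/- replicate 2 (adjusted p = 0.0826, 0.115 and 0.119). *Bmpr2* (-0.14, SE 0.06, adjusted p = 0.185), *Bmp5* (-0.17, SE 0.05, adjusted p = 0.0728), *Id1* (-0.27, SE 0.08, adjusted p = 0.0613) and *Id3* (0.16, SE 0.05, adjusted p = 0.0577) were short of the threshold. With the leading gate 4 members passed, beside 11.6% of all genes, namely *Grem1* (3.99, SE 0.08), *Bmp4* (-0.30, SE 0.06), *Acvrl1* (-0.15, SE 0.04) and *Id3* (0.17, SE 0.03, adjusted p = 0.00521). With 2 UMIs of a gate gene *Acvrl1* was lost (adjusted p = 0.0705). Without WT replicate 2 *Bmpr2* passed (-0.19, adjusted p = 0.0379), and without WT replicate 1 so did *Id1* (-0.33, adjusted p = 0.0495).

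Of the other pathway genes, 6 of 35 tested were higher and 4 lower in *Cthrc1*-positive fibroblasts, where 855 and 712 of all 13484 genes were. The largest rises were those of *Fst*, which encodes the activin and BMP binding protein follistatin (log2 difference 1.92, adjusted p = 2.8e-05), the BMP target *Msx1* (1.54, adjusted p = 9.7e-04) and the type I receptor *Bmpr1b* (1.37, adjusted p = 2.4e-04). Among those that fell were the ligands *Bmp7* (-0.86, adjusted p = 0.012) and *Bmp3* (-0.38, adjusted p = 0.022). *Fst* had 161.3, 83.9, 343.0 and 246.1 CPM in the positive cells and 45.6, 13.4, 111.3 and 76.3 CPM in the negative cells of the 4 mice.

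**Figure D4:**
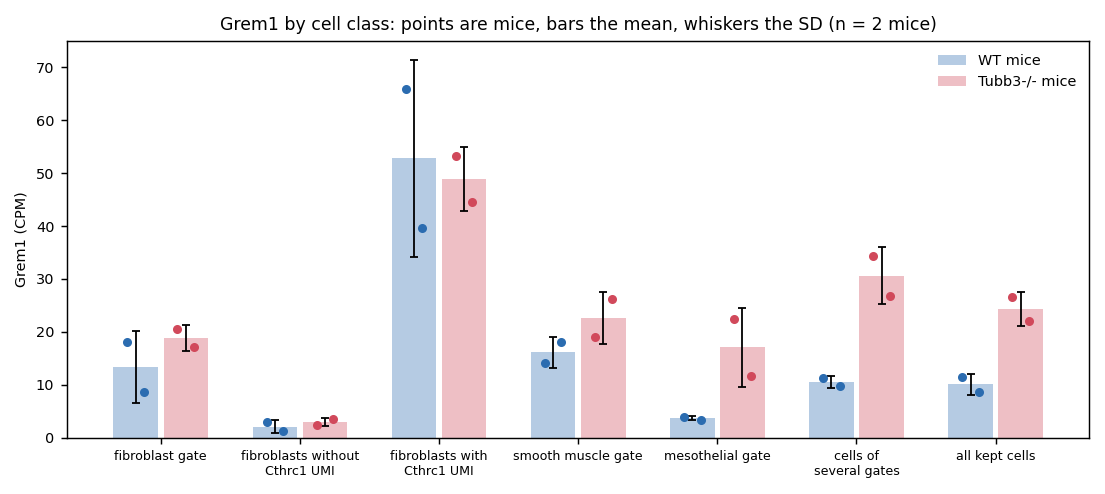
*Grem1* in CPM by cell class, with points for mice, bars for the mean of 2 mice per genotype and whiskers for the SD. *Cthrc1*-positive fibroblasts of all 4 mice have 39.6 CPM or more and *Cthrc1*-negative ones 3.55 CPM or less, and the genotypes are apart in the cells of several gates.

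Most *Grem1* UMIs (70.7%) lay outside the 6 lineages, in the cells of several gates. Those cells were 46.8% of kept cells and held 48.7% (*Bmp6*) to 63.9% (*Bmp4*) of the UMIs of the other members. No member passed edgeR's test between the genotypes in those cells or in all kept cells together, where 0% of genes passed. DESeq2 called *Grem1* alone among the members in both, beside 4.51% and 5.12% of all genes.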

How the data were processed

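The authors deposited UMI counts of each gene in each cell. Their notes name Cell Ranger 7.1.0 and mm10, to which *Cre* was added, and tags told the mice apart. The counts are raw and whole. Here cells with 200 to 7500 genes and at most 15% mitochondrial UMIs were kept (30860 of 32121), and UMIs were summed per mouse and class over both libraries. Whether counting used strand is not given in the sources used here. Sums of 2 mice per genotype were tested with edgeR 4.0.16 (filterByExpr, TMM, quasi-likelihood F test, adjusted p under 0.05 over all genes) in R 4.3.3. Fibroblast states and lineages were compared with the mouse as a term, and lineage differences on the log2 scale are TMM-scaled, unlike CPM. Values for levels are mean ± SD. DESeq2 1.42.0, other filters, gates, libraries and single mice left out were the alternatives, and the leading gate and the cells of several gates were added after seeing the data. The tests were tried on simulated counts with 200 changed genes. Cells of several gates were dropped in place of a doublet caller. Scrublet (scanpy 1.11.5), an alternative, marked 2 of 14160 cells of the whole-cell pool, where it has not worked, and 3.79% of the mural cell-enriched pool. Replicate numbers only name the tagged mice and are not stated to mark a litter or day. The mice were adult littermates, and each is a separate animal. Members, gene lists and tests were chosen with earlier results of these data known. The rule named the 10 members, up to 3 called pathway genes in each direction (1 of these is not reported here), and 5 genes of like pattern for *Bmpr2*, *Grem1* and *Id1*. Coordinates are from GENCODE vM21.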

Additional observations from a re-analysis of the deposited data

Results flagged for a closer look

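*Grem1* was above background in cells that the main lineage comparisons left out, those that matched several gates. Only the leading gate took a part of them. These cells had 11.4 and 9.78 CPM of *Grem1* in WT mice against 34.4 and 26.8 CPM in *Tubb3*-/- mice, against 0.258 to 0.727 CPM in immune cells. They held 70.7% of the 8933 *Grem1* UMIs of all kept cells, beside 48.7% (*Bmp6*) to 63.9% (*Bmp4*) of the UMIs of the other members. Of the *Grem1* UMIs in these cells, 73.3% lay in the 42.4% of them with UMIs of both *Pdgfra* and *Myh11*. For *Grem1* each *Tubb3*-/- mouse was above each WT mouse, which also held for 21.1% of all genes in this class. The log2 fold change was 1.55 (SE 0.18, adjusted p = 0.126 in edgeR, where 0% of 19070 genes passed and 3587 had an unadjusted p under 0.05), and DESeq2 gave adjusted p = 1.4e-10, where it called 4.51% of genes. Over all kept cells the change was 1.30 (SE 0.20, adjusted p = 0.140). The 4 fibroblast markers, 3 of them without overlap, summed to 5418 and 3549 CPM in these cells of WT mice and to 7102 and 6494 CPM in those of *Tubb3*-/- mice. In the same cells 3 of 4 mural markers were higher without overlap, and 4 of 4 mesothelial, 3 of 4 immune and 3 of 4 epithelial markers were lower. Their part in the result was not tested. Over all kept cells, 84.5% of *Grem1* UMIs lay in the 18.1% of cells with a *Cthrc1* UMI, and 4.57% of cells held a *Grem1* UMI.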

How the results depend on the processing

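With 2 mice per genotype, calls moved with the settings. Without the filter on low counts, 2 members passed in the mural gate (840 of 22913 genes) and 2 in endothelial cells (*Bmp6* and *Smad6*, 913 of 21046 genes). In this setting 4 passed in the mesothelial gate (348 of 18304), 4 in the smooth muscle gate (1129 of 22670) and 5 between the *Cthrc1* states (2144 of 23364). DESeq2 called 2 in endothelial cells (0.981% of genes), 1 in the cells of several gates (4.51%) and 1 in all kept cells (5.12%). In the mesothelial gate 0 passed with the whole-cell libraries alone, with 2 UMIs of a gate gene or with the leading gate. Leaving out 1 mouse left 1 mouse in its genotype. The member calls then moved in fibroblasts, endothelial cells, the smooth muscle gate, the mesothelial gate and all kept cells, as did the calls over all genes. Replicate numbers came with correlated deviations (r of 0.0734 to 0.321 over 8 classes, 2 pairs each), too few pairs to take them as a pairing. With a replicate block 2 members passed in the mural gate (*Grem1* and *Id1*), 4 in the mesothelial gate and 2 in the smooth muscle gate. In the cells of several gates 1 passed (*Grem1*), beside 533 of 19070 genes. In fibroblasts 1566 genes passed where 0 did without the block. Of the other pathway genes, the block called 5 higher and 6 lower of 38 in fibroblasts (1566 of 14783 genes). It called 5 and 2 of 36 in the smooth muscle gate (664 of 14182), 2 and 2 of 36 in the mural gate (533 of 14478) and 3 and 1 of 30 in the mesothelial gate (292 of 9540). Some log2 fold changes named in the report changed sign. *Bmpr2* (0.13) and *Grem1* (-0.43) in fibroblasts and *Smad6* in the mural gate (0.36) did so with whole-cell libraries alone, and *Id3* in endothelial cells (-0.16) with mural cell-enriched libraries alone. Leaving out 1 mouse gave ranges of -0.17 to 0.040 for *Bmpr2* and -0.23 to 0.10 for *Bmp5* in fibroblasts, -0.36 to 0.017 for *Id3* in the mural gate, and -0.19 to 0.65 for *Id1* and -0.17 to 0.25 for *Id3* in endothelial cells. Over all members at 10 CPM or more, 54 of 848 such values changed sign, the largest of them 0.48 in the main setting. The cause was not tested. Levels moved for *Bmp4* in fibroblasts with the leading gate (129.9 CPM) and for *Grem1* in the mural gate with whole-cell libraries alone (9.71 CPM), and the other 28 of 30 stayed within 1 SD. The pericyte gate had too few cells for the whole-cell, mural cell-enriched, 2-UMI and 10% mitochondrial settings, which were not run there. All-gene calls ranged from 0 to 1566 in fibroblasts, 0 to 840 in the mural gate, 0 to 913 in endothelial cells and 2 to 1129 in the smooth muscle gate.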

Other observations

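The cells that matched no gate (769 cells) had *Grem1* at 46.1 and 12.7 CPM in WT mice against 76.1 and 95.6 CPM in *Tubb3*-/- mice. They held 4.37% of the *Grem1* UMIs of kept cells, against 0.857% of the *Bmpr2* UMIs. No test was run on them.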
